A study of Homo sapiens with 120 samples.

Results

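A pair of preparations of cerium dioxide nanoparticles sold by the same vendor, Alfa Aesar, and coded C and L in the labels, were compared at the medium dose of 3 µg/mL in HepG2 cells. The comparison takes the 5 arrays of powder C and the 5 arrays of powder L at that dose, 10 of 120 arrays in the series, selected by their labels and by no measured value. HepG2 is a human hepatocellular carcinoma line that keeps many functions of liver cells, such as the secretion of plasma proteins. Flasks were treated individually, per the labels, and all shared the line, the medium and a 72 h exposure. The other groups used below are the same powders at 0.3 µg/mL (4 arrays each) and 30 µg/mL (5 arrays each), 8 untreated control arrays, and powder D, a further Alfa Aesar cerium dioxide, at 3 µg/mL (5 arrays). The controls and D enter no test of C against L. The labels give the vendor and the oxide of C and L but no property in which they differ: particle sizes are stated for the whole series only, as 22 to 214 nm when dry. The labels code 8 materials while the series text counts 6 formulations, so whether each coded powder is a formulation of its own is not known here. The comparison addresses whether powders of 1 oxide and 1 vendor leave the cells with different RNA levels.

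Cerium dioxide particles are taken up by cells into endosomes and lysosomes, and cerium at their surface can switch between oxidation states, so that they can act on reactive oxygen species in either direction. Genes commonly read for a response to metal oxide particles are those of the NRF2 pathway, metallothioneins, heat shock and endoplasmic reticulum chaperones, iron handling, inflammation and the cell cycle. Immediate early genes such as EGR1 follow the activity of the growth factor to ERK kinase cascade within minutes to hours, and Sprouty and dual-specificity phosphatase genes encode its feedback inhibitors.

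Levels below are log2 of the deposited probe intensity, which has the same distribution on every array, so each level is relative to the other genes of its array. A difference is the mean of C minus the mean of L on that scale, given with its standard error (SE), and 20046 genes were tested with limma, with p-values adjusted over all of them. A gene passed where the adjusted p was under 0.05. The number of arrays limits the precision. Levels of cell type markers matched the label: all 10 measured hepatocyte markers lay above the upper quartile of genes (7.84), with a median level of 13.18. None of 8 fibroblast and 6 endothelial markers did, and of 6 leukocyte markers only CD68 did, at 8.40. Over the series, 9 arrays were far from the others along principal component 1, none of them among the 10, but 1 is L replicate 3 at 0.3 and 1 is L replicate 1 at 30 µg/mL.

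One of the 10 arrays went with other groups. L replicate 5 differed from the other L arrays by a root mean square of 0.21 over genes and from the C arrays by 0.18, and its nearest arrays were of powder M, a control and powder B. The other 9 arrays lay 0.14 to 0.19 from their own group and 0.20 to 0.22 from the other one. Results are therefore also given without L replicate 5. That array was picked for its nearness to C, so larger counts and smaller p-values without it follow in part from that choice. They are given as description and are no support for a difference.

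On the C arrays 491 genes were higher and 542 lower than on the L arrays, 1033 of 20046 or 5.15% of the genes tested (2.45% higher in C and 2.7% lower). These 2 shares are the background for the list counts at 3 µg/mL with all arrays below. Most differences were small: the median size among the called genes was 0.34, and 3 called genes differed by over 2-fold, namely SNORD13, higher in C, and EGR1 and SPRY4, lower in C. The 5 C and the 5 L arrays did not overlap for 690 of the called genes (3.44% of all genes) and for 882 of all genes (4.4%, with 2.12% higher and 2.28% lower in C). At an unadjusted p under 0.05 there were 3739 genes. Without L replicate 5 the call took in 944 genes higher and 1379 lower in C (11.6% of the genes, 4.71% and 6.88%), with 1017 of the 1033 among them and in the same direction. That fit uses the same remaining arrays, so the shared calls are no separate support. The count rests on other arrays as well, since leaving out C replicate 1, 4 or 5 or L replicate 1, 2 or 3 gave 352 to 536 genes. In bulk RNA, fewer cells that express a gene and less RNA per cell cannot be told apart. The labels name no culture run, so a difference between runs cannot be told apart from one between powders.

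The largest non-overlapping differences on the C side were those of SNORD13, DEPP1, AFMID and RNU4-2, and on the L side those of EGR1, SPRY4, TAF15 and SMG1. The 12 largest non-overlapping differences in each direction ran from 0.66 to 1.85 on the C side and from -0.73 to -1.21 on the L side.

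**Figure D1:**
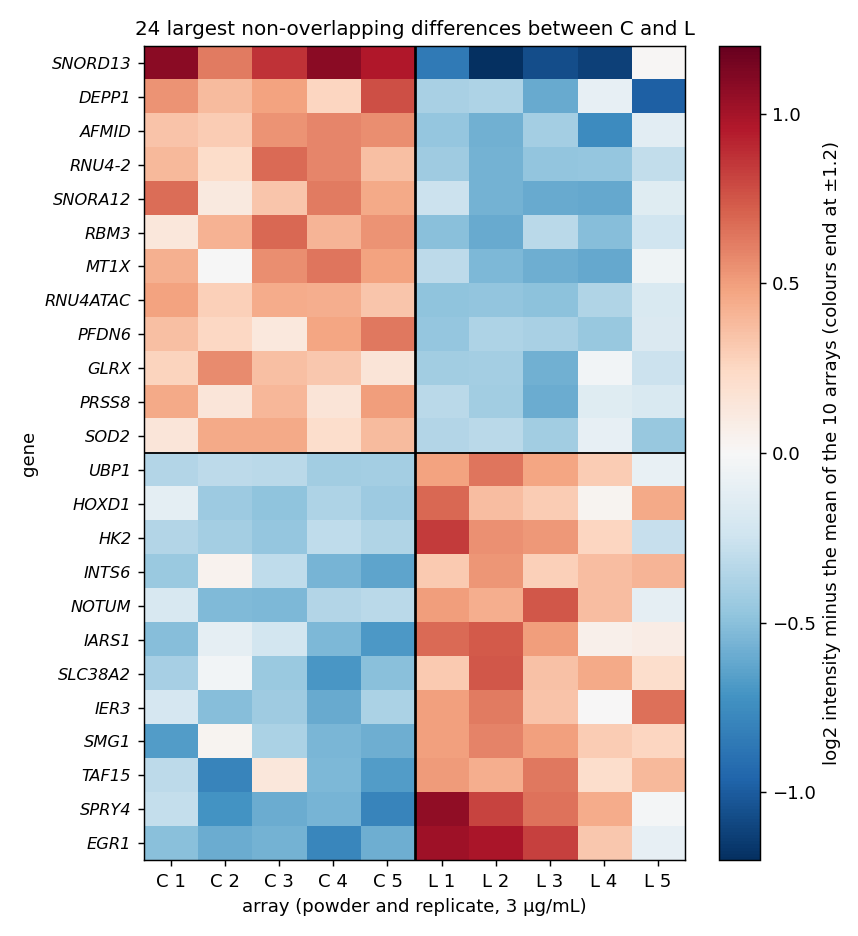
Heat map of the 24 genes with the largest non-overlapping differences between C and L at 3 µg/mL, chosen for those differences. Columns are the 10 arrays, rows the genes, and colour the log2 intensity minus the gene's mean over the 10 arrays. On L replicate 5 SNORD13, EGR1 and SPRY4 lie closer to the C arrays than on the other L arrays.

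Promoters are shown for 3 of the 4 immediate early and ERK feedback genes lower in C and for MT1X, the metallothionein with the largest difference. They are RefSeq promoters of GRCh38.p14, each from 250 bases before to 50 bases after the gene's start and read 5′ to 3′ on the gene's strand. Capitals mark CArG boxes (the serum response element core, CC, then 6 bases of A or T, then GG, the same on both strands) in the first 3, and metal response element cores (TGCACNC or TGCGCNC on either strand) in MT1X. 
EGR1 at chr5:138465229-138465528, plus strand: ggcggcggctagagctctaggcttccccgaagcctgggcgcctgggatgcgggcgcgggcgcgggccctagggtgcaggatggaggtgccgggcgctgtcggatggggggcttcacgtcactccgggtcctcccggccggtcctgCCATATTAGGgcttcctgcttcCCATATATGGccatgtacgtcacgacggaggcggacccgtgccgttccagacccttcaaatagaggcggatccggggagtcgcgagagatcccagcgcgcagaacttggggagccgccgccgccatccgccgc
SPRY4 at chr5:142324198-142324497, minus strand: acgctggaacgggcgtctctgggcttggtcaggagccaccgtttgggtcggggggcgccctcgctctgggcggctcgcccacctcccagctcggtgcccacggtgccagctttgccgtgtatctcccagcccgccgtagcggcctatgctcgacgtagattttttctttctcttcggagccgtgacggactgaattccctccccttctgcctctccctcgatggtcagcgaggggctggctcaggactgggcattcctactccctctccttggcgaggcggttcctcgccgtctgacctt
DUSP6 at chr12:89352452-89352751, minus strand: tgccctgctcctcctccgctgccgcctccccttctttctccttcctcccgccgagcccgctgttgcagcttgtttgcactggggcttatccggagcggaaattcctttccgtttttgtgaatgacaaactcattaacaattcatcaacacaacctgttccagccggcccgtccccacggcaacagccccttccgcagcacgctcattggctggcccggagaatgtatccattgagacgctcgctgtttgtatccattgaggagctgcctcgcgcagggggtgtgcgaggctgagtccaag
MT1X at chr16:56682220-56682519, plus strand: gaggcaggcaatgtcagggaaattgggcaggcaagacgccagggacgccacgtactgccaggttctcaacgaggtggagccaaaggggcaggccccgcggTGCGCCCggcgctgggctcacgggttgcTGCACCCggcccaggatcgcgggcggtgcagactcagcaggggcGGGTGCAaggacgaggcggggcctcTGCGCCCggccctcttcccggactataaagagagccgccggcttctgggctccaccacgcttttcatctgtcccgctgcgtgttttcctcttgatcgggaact
The EGR1 window holds 2 CArG boxes, and the SPRY4, DUSP6 and MT1X windows hold 0. A CArG box is in 1.29% of all 35116 promoters of this length. The MT1X window holds 4 metal response element cores, the EGR1 window 2 and the others 0, and 0.601% of all promoters hold 4 or more while 29.6% hold at least 1. The full cAMP response element TGACGTCA is in none of the 4 and in 1.85% of all promoters.

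Of 24 measured immediate early genes and ERK feedback genes, 4 were lower and 1 was higher in C (all genes: 2.7% and 2.45%), and 6 lower and 1 higher at an unadjusted p under 0.05. The list's median difference was -0.01, against -2e-04 over all genes. EGR1 encodes a zinc finger transcription factor. EGR1 stood at 9.10, 9.01, 9.04, 8.83 and 9.02 on the C arrays, in the order of replicates, and at 10.62, 10.58, 10.43, 9.93 and 9.51 on the L arrays. Every L array was above every C array, with L replicate 5 nearest to C, and the difference was -1.21 ± 0.19 (adjusted p = 0.0089), or 2.32-fold. The C arrays lay within the range of the 8 controls (8.68 to 9.79), while 4 of the 5 L arrays were above it. SPRY4 encodes a Sprouty inhibitor of receptor tyrosine kinase signalling. SPRY4 stood at 8.79, 8.37, 8.49, 8.52 and 8.29 on the C arrays, in the order of replicates, and at 10.14, 9.90, 9.73, 9.53 and 9.06 on the L arrays. The groups did not overlap and the difference was -1.18 ± 0.18 (adjusted p = 0.00765), or 2.26-fold, against a control range of 8.22 to 9.16. The 3 other SPRY4 probes differed by -0.15 to 0.01, so the call rests on 1 probe.

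IER3, a stress-inducible early gene, was at 11.08, 10.77, 10.86, 10.68 and 10.90 on the C arrays and at 11.78, 11.91, 11.63, 11.29 and 11.95 on the L arrays. The difference was -0.85 ± 0.12 (adjusted p = 0.00665) with no overlap, but the controls spread over both groups, from 10.47 to 11.86. The 5 arrays of powder D at 3 µg/mL (11.49 to 11.84) lay in the L range. DUSP6, which encodes an ERK phosphatase, was at 9.15, 8.89, 8.82, 8.75 and 8.95 on the C arrays and at 9.57, 9.63, 9.20, 9.35 and 9.15 on the L arrays, a difference of -0.47 ± 0.10 (adjusted p = 0.0303), and its other probe differed by 0.04. CCN1, a secreted matrix protein gene, went the other way at 0.45 ± 0.11 (adjusted p = 0.0438). The best known members of the list missed the threshold: FOS differed by -0.02, JUN by 0.14, MYC by 0.11, DUSP1 by -0.01 and SPRY2 by -0.09. Of these, FOS was dim, at a level of 6.707 against a median gene level of 6.71.

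**Figure D2:**
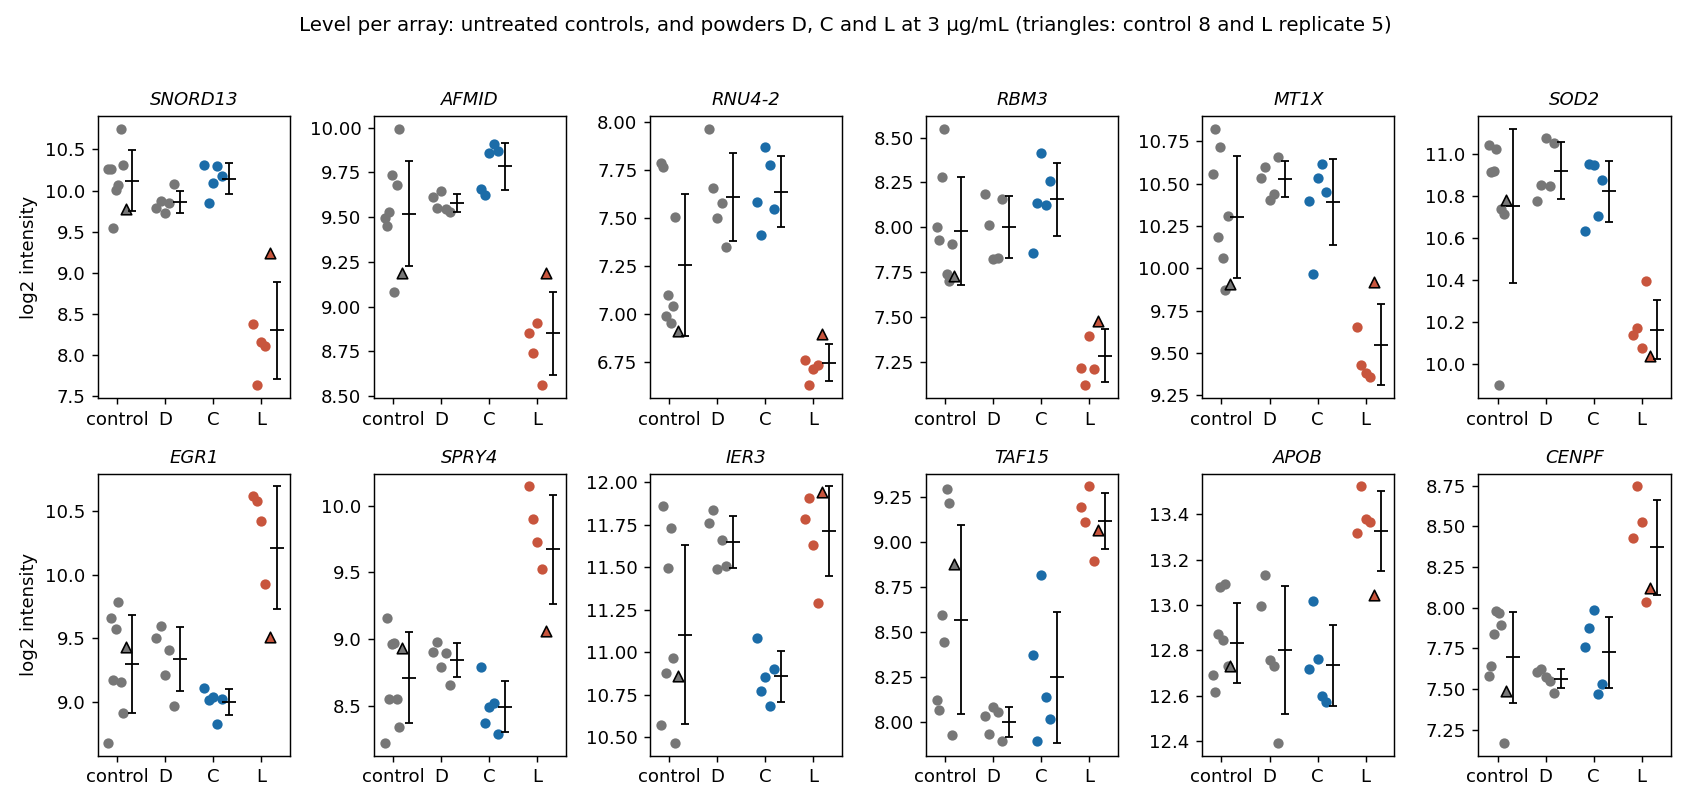
Log2 intensity of 12 genes on each array of the untreated controls and of powders D, C and L at 3 µg/mL. Bars give the mean ± SD of each group, and triangles mark control 8 and L replicate 5. SNORD13, AFMID and RBM3 are lower on every L array than on every C array, and EGR1 and SPRY4 are higher.

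Several small nuclear, Cajal body and nucleolar RNAs were higher in C. These classes were set apart after their members had been seen among the largest differences, so the counts are a description. By RefSeq gene type, 7 of 16 small nuclear RNA genes (43.8%) were higher in C and 0 lower, and of 279 small nucleolar RNA genes 12 were higher (4.3%) and 1 lower. Of 24 small Cajal body RNAs, taken by their SCARNA symbols, 5 were higher (20.8%) and 0 lower. Of 561 microRNA genes 0 passed in limma, with 4 higher and 4 lower at an unadjusted p under 0.05. The median level was 6.54 for the microRNA, 6.58 for the nucleolar, 6.63 for the Cajal body and 7.21 for the small nuclear RNA genes. The median over all genes was 6.71, so most microRNA probes were dim. At 0.3 and 30 µg/mL the small nuclear RNAs higher in C numbered 1 and 2, the Cajal body RNAs 2 and 1 and the nucleolar RNAs 7 and 2, with 0 lower. The background is 2.45% of all genes higher in C at 3 µg/mL, 2.01% at 0.3 and 0.195% at 30 µg/mL. The 7 of 279 nucleolar RNAs at 0.3 µg/mL are near that dose's background. How the labelling reached these RNAs, most of which carry no poly(A) tail, could not be taken from the labels.

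SNORD13, a small nucleolar RNA that guides the acetylation of 18S ribosomal RNA, showed the largest difference of all genes. SNORD13 stood at 10.31, 9.85, 10.09, 10.30 and 10.18 on the C arrays, in the order of replicates, and at 8.37, 7.63, 8.16, 8.10 and 9.24 on the L arrays. L replicates 1 to 4 lay far below the C arrays and L replicate 5 between them, at a difference of 1.85 ± 0.24 (adjusted p = 0.00538), or 3.6-fold. All C arrays were within the control range (9.54 to 10.75) and all L arrays below it, and the D arrays (9.73 to 10.08) were with the controls. Without L replicate 5 the difference was 2.08 (adjusted p = 5.25e-05). RNU4-2, the U4 RNA of the major spliceosome, was at 7.58, 7.41, 7.87, 7.77 and 7.55 on the C arrays and at 6.76, 6.63, 6.71, 6.73 and 6.89 on the L arrays, and the groups did not overlap (0.89 ± 0.08, adjusted p = 0.00413). Here the controls spread from 6.91 to 7.78, over most of the gap between the groups. RNU4ATAC, its counterpart in the minor spliceosome, had the smallest p of all genes: 7.76, 7.57, 7.73, 7.71 and 7.61 on the C arrays and 6.80, 6.80, 6.79, 6.91 and 7.10 on the L arrays, a difference of 0.80 ± 0.06 (adjusted p = 0.00217). SNORA12, which guides pseudouridylation, differed by 0.88 ± 0.12 (adjusted p = 0.00665).

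The other small nuclear RNAs called were RNU1-1 (0.41 ± 0.07), RNU1-3 (0.30 ± 0.04), RNVU1-18 (0.32 ± 0.06), RNVU1-7 (0.26 ± 0.07) and the transcription regulator RN7SK (0.48 ± 0.10), whose other probe differed by 0.00. The U1 genes are near-identical copies, whose probes may not tell them apart, so they are uncertain as separate genes. SCARNA18 (0.54 ± 0.06), SCARNA9 (0.51 ± 0.09) and SCARNA16 (0.44 ± 0.06) led the Cajal body RNAs, which guide the modification of spliceosomal RNAs. SNORD3A, a copy of the U3 RNA of ribosomal RNA processing, differed by 0.67 ± 0.15, and its copy SNORD3C by 0.28 ± 0.06. The 1 member of these classes lower in C was SNORD4A (-0.14 ± 0.03).

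Further RNA-binding and RNA-processing genes stood on both sides. RBM3, a cold-inducible RNA-binding protein gene, was at 7.85, 8.14, 8.41, 8.12 and 8.26 on the C arrays and at 7.21, 7.12, 7.39, 7.21 and 7.48 on the L arrays, a difference of 0.87 ± 0.10 (adjusted p = 0.00413) with no overlap. Lower in C were TAF15, an RNA-binding protein of the FET family (-0.87 ± 0.15, adjusted p = 0.0135), SMG1, a kinase of nonsense-mediated decay (-0.86 ± 0.12, adjusted p = 0.00696), and INTS6, a subunit of the Integrator complex that forms the ends of small nuclear RNAs (-0.76 ± 0.11, adjusted p = 0.00698). TAF15 was at 8.37, 7.89, 8.82, 8.14 and 8.01 on the C arrays and at 9.20, 9.12, 9.31, 8.89 and 9.07 on the L arrays, while the controls spread from 7.93 to 9.30. The second TAF15 probe passed too, at -0.59, whereas the other probes of SMG1 and INTS6 differed by 0.05 and 0.06.

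Metallothioneins bind zinc and copper, and metal exposure is known to induce them. All 8 measured genes had differences above 0, and 2 of them were higher in C past the test, with 0 lower. Several of these differences were near 0: MT1H differed by 0.07 and MT2A, the brightest member, by 0.08 (adjusted p = 0.794). MT1B and MT1M, at levels of 6.54 and 6.58, below the median gene level of 6.71, differed by 0.02 each. Over all genes 2.45% were higher in C, and 9984 of 20046 differences were above 0. MT1X was at 10.40, 9.97, 10.53, 10.61 and 10.45 on the C arrays and at 9.65, 9.43, 9.38, 9.36 and 9.92 on the L arrays, and the groups, which nearly met at C replicate 2 and L replicate 5, differed by 0.84 ± 0.14 (adjusted p = 0.00962). MT1F differed by 0.60 ± 0.15 (adjusted p = 0.0446) with 1 pair of arrays overlapping, while MT1G at 0.32 and MT1E at 0.19 missed the threshold. The list's median was 0.13. Medians at the other doses were of either sign: at 0.3 µg/mL the list's median was -0.16 with MT1G lower in C (-0.38, adjusted p = 0.00806), and at 30 µg/mL it was 0.48 with no member past the test. In the fit over the 6 C and L groups MT1X at 3 µg/mL had an adjusted p of 0.0531. The change of the difference between doses passed for no gene, and these paralogous genes can share signal. The MT1X levels of C lay within the control range (9.87 to 10.82), and 4 of 5 L arrays were below it.

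Genes of peroxide and redox defence were mixed. SOD2, the mitochondrial superoxide dismutase gene, was at 10.63, 10.95, 10.95, 10.71 and 10.88 on the C arrays and at 10.14, 10.17, 10.08, 10.40 and 10.04 on the L arrays, a difference of 0.66 ± 0.08 (adjusted p = 0.00494) without overlap, and catalase, CAT, was lower in C by -0.50 ± 0.09 (adjusted p = 0.0135). Of 20 measured glutathione and peroxide enzyme genes, these were the 2 that passed. GLRX, a glutaredoxin gene, differed by 0.67 ± 0.10 (adjusted p = 0.00765), but its call was lost in the fits over all groups (adjusted p = 0.213) and over the 6 C and L groups (adjusted p = 0.288). The 2 other SOD2 probes differed by 0.02 and 0.84, with 1 past the test. None of 16 NRF2 targets passed in limma, with a median of -0.01 and 2 members lower at an unadjusted p under 0.05. Without L replicate 5, 2 were lower in C (all genes: 6.88%), as were 2 at 0.3 µg/mL (all genes: 3.74%). Leaving out L replicate 3 at 0.3 µg/mL gave 6 lower and 1 higher (all genes: 9.76% and 5.9%). HMOX1 differed by 0.09 ± 0.09 (adjusted p = 0.713), with a 95% interval of -0.11 to 0.29, NQO1 by -0.16 ± 0.10 (adjusted p = 0.472), interval -0.39 to 0.06, and SLC7A11 by 0.0051 ± 0.07 (adjusted p = 0.988), interval -0.15 to 0.16.

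Several proliferation genes were lower in C. Of 30 G2 and mitosis genes, 6 were lower and 0 higher (all genes: 2.7% lower), 15 lower and 0 at an unadjusted p under 0.05, and 27 of 30 differences were below 0, with a median of -0.25. CENPF, a kinetochore protein gene, was at 7.76, 7.88, 7.98, 7.47 and 7.53 on the C arrays and at 8.43, 8.75, 8.53, 8.04 and 8.12 on the L arrays, a difference of -0.65 ± 0.14 (adjusted p = 0.0302). TPX2, a spindle assembly gene, differed by -0.63 ± 0.14 (adjusted p = 0.0303), the checkpoint kinase gene BUB1 by -0.47 ± 0.08 (adjusted p = 0.0135) and the mitotic kinase gene AURKA by -0.50 ± 0.11 (adjusted p = 0.0307). The arrays were uneven: the mean of the 30 levels was 8.14 to 8.27 on the C arrays and 8.47 to 8.60 on L replicates 1, 2, 3 and 5, but 8.16 on L replicate 4. Control 8 had the lowest mean of the controls (7.65), and controls 1 to 7 spread from 7.84 to 8.44. At 0.3 µg/mL 10 of the 30 were lower in C and 0 higher, with a median of -0.25, and at 30 µg/mL 0 passed, with a median of -0.18. Without L replicates 1 and 5 at 30 µg/mL 6 were lower and 1 higher (all genes: 6.84% and 4.06%). Of 30 DNA replication genes only MCM10 passed (-0.24 ± 0.06, adjusted p = 0.0431), and 22 of 30 were below 0. At 3 µg/mL without L replicate 5, 3 of these genes were lower and 3 higher in C (all genes: 6.88% and 4.71%). At 0.3 µg/mL 11 were lower and 0 higher, and without L replicate 3 there 16 were lower and 1 higher. Over all genes 3.74% were lower in C at 0.3 µg/mL, and 9.76% without L replicate 3. Clustered histone genes were on the other side, with 3 of 15 higher in C and 0 lower: H2AC6 at 0.82 ± 0.19 (adjusted p = 0.0382), H2BC12 at 0.76 ± 0.16 (adjusted p = 0.0252) and H1-2 at 0.54 ± 0.13 (adjusted p = 0.0389). H2AC6 on L replicate 5 (8.27) lay within the C range.

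**Figure D3:**
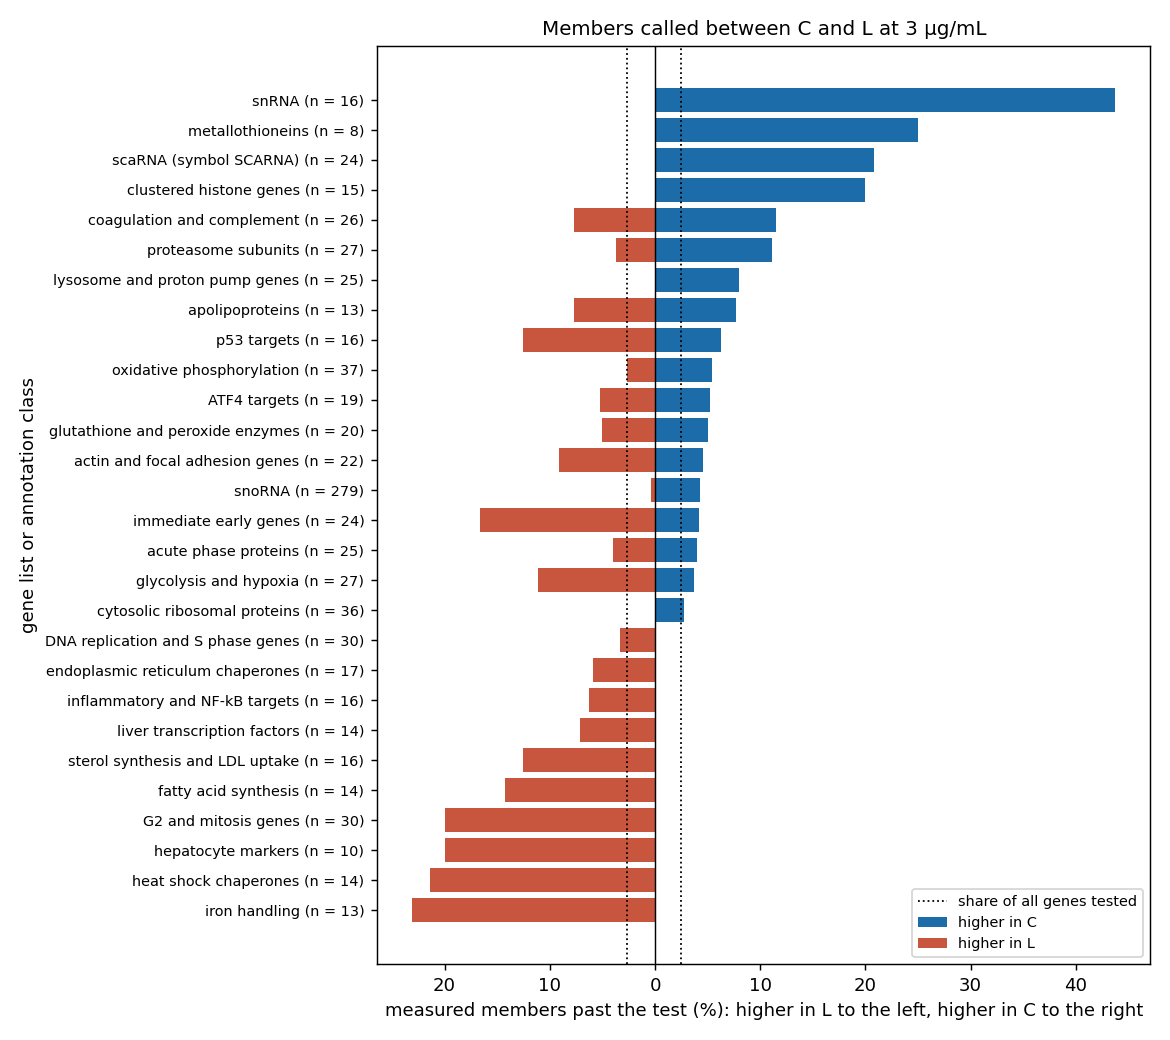
Share of the measured members of each gene list or RNA class past the test at 3 µg/mL, higher in C to the right and higher in L to the left. Dotted lines give the shares of all genes tested, 2.45% and 2.7%. Lists with no member past the test are not drawn, and the RNA classes were chosen after their values were seen.

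Of 14 heat shock chaperone genes 3 were lower in C and 0 higher (all genes: 2.7% and 2.45%), namely HSP90AB1 (-0.60 ± 0.12, adjusted p = 0.0218), HSPA4 (-0.42 ± 0.08, adjusted p = 0.0206) and HSPD1 (-0.23 ± 0.06, adjusted p = 0.0401). HSP90AB1 was at 11.87, 11.72, 11.62, 11.78 and 11.60 on the C arrays and at 12.49, 12.40, 12.42, 12.48 and 11.81 on the L arrays, so L replicate 5 lay among the C arrays. HSPD1 encodes a mitochondrial chaperonin, whose partner HSPE1 is on the list as well, while HSP90AB1 and HSPA4 are cytosolic. It kept no direction over probes, and the mean of its 4 probes gave 0.08. At 0.3 µg/mL without L replicate 3 the list held 4 higher and 3 lower in C (all genes: 5.9% and 9.76%). The inducible HSPA1A differed by -0.05 ± 0.12 (adjusted p = 0.904), interval -0.31 to 0.21. Of 17 endoplasmic reticulum chaperone genes 1 passed, MANF at -0.21 ± 0.05 (adjusted p = 0.0393).

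Further genes of the 12 largest differences on the L side were SLC38A2, IARS1 and HK2. SLC38A2, an amino acid transporter gene, differed by -0.83 ± 0.13 (adjusted p = 0.00765), and its call was lost in the fits over all groups (adjusted p = 0.317) and over the 6 C and L groups (adjusted p = 0.41). IARS1, the isoleucyl-tRNA synthetase gene, differed by -0.83 ± 0.16 (adjusted p = 0.017) and HK2, a hexokinase gene, by -0.76 ± 0.16 (adjusted p = 0.0283), though their other probes differed by -0.04 and -0.13. HK2 was at 9.49, 9.44, 9.39, 9.55 and 9.49 on the C arrays and at 10.69, 10.40, 10.37, 10.11 and 9.58 on the L arrays, with L replicate 5 next to the C arrays. Of 27 glycolysis and hypoxia genes, 3 were lower in C (HK2, P4HA1 and SLC2A1) and BNIP3, a mitophagy receptor gene, was higher (0.36 ± 0.08, adjusted p = 0.0254). Of 19 ATF4 targets, DDIT4, an inhibitor of mTORC1, was lower (-0.63 ± 0.10, adjusted p = 0.0103) and ATF5 higher (0.33 ± 0.08, adjusted p = 0.0424).

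Iron genes gave 3 lower in C and 0 higher of 13 (all genes: 2.7% and 2.45%). Without L replicate 5, 4 were lower and 1 higher (all genes: 6.88% and 4.71%). The 3 called with all arrays were TF, which encodes transferrin, with -0.24 ± 0.05 (adjusted p = 0.0158), the iron regulatory protein gene ACO1 with -0.25 ± 0.05 (adjusted p = 0.0186) and the metal importer gene SLC39A14 with -0.52 ± 0.11 (adjusted p = 0.0273). TFRC, the transferrin receptor gene, differed by -0.39 ± 0.16 (adjusted p = 0.225), interval -0.75 to -0.03. SLC39A14 was at 10.50, 10.59, 10.53, 10.52 and 10.43 on the C arrays and at 11.20, 11.16, 11.17, 11.10 and 10.54 on the L arrays, with L replicate 5 inside the C range.

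Secreted liver proteins were divided. APOB, the structural protein gene of very low density lipoproteins, was at 12.72, 13.02, 12.76, 12.60 and 12.57 on the C arrays and at 13.32, 13.52, 13.38, 13.37 and 13.04 on the L arrays, a difference of -0.59 ± 0.10 (adjusted p = 0.0112) without overlap, and APOM, of high density lipoproteins, was higher in C by 0.70 ± 0.16 (adjusted p = 0.037). These were the 2 called among 13 apolipoproteins. Of 26 coagulation and complement genes, 3 were higher in C, F12 (0.19 ± 0.04, adjusted p = 0.0303), PLG (0.29 ± 0.07, adjusted p = 0.0335) and F7 (0.24 ± 0.06, adjusted p = 0.0358), and 2 were lower, F5 (-0.42 ± 0.08, adjusted p = 0.0152) and CFB. Of 25 acute phase genes SAA4 was higher (0.50 ± 0.06, adjusted p = 0.00508) and TF lower. ALB differed by 0.04 ± 0.06 (adjusted p = 0.83), interval -0.09 to 0.17, and AFP by -0.16 ± 0.12 (adjusted p = 0.583), interval -0.42 to 0.11, and a p that misses the threshold does not show that the powders act alike.

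For the lists of this paragraph, the shares over all genes were 2.45% higher and 2.7% lower in C. Lipid synthesis genes past the test at 3 µg/mL were lower in C, with 0 higher: ACSL1 (-0.30 ± 0.06, adjusted p = 0.0173) and ACSL4 (-0.61 ± 0.14, adjusted p = 0.0338) of 14 fatty acid genes and SQLE (-0.34 ± 0.06, adjusted p = 0.0106) and CYP51A1 (-0.23 ± 0.06, adjusted p = 0.045) of 16 sterol genes. At 0.3 and 30 µg/mL ACSL4 differed by 0.31 and -0.13 and ACSL1 by 0.05 and -0.06. SQLE differed there by -0.07 and -0.03 and CYP51A1 by -0.29 and 0.03. Of 27 proteasome subunits 3 were higher in C (PSMC3, PSMB7 and PSMB6, at 0.20 to 0.35) and PSME2 lower (-0.21 ± 0.05, adjusted p = 0.0303). Of 25 lysosome genes CTSB (0.42 ± 0.09, adjusted p = 0.0247) and ATP6V1H (0.23 ± 0.06, adjusted p = 0.0395) were higher in C. Of 16 p53 targets BAX was higher (0.73 ± 0.18, adjusted p = 0.042) and GDF15 (-0.49 ± 0.10, adjusted p = 0.0225) and SESN1 (-0.31 ± 0.07, adjusted p = 0.0355) lower. The 2 other BAX probes differed by 0.01 and 0.07.

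Without L replicate 5, where 4.71% of all genes were higher and 6.88% lower in C, 7 of 30 G2 and mitosis genes, 5 of 24 immediate early genes (with 1 higher), 5 of 14 heat shock chaperone genes and 6 of 14 fatty acid genes were lower in C. On the other side 2 of 8 metallothioneins, 4 of 15 histone genes, 7 of 16 small nuclear RNAs, 6 of 24 small Cajal body RNAs and 21 of 279 small nucleolar RNAs (with 1 lower) were higher in C. Other lists were mixed, with 7 higher and 2 lower of 26 coagulation and complement genes, 5 and 2 of 22 actin genes and 1 and 4 of 13 iron genes.

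The remaining lists held few or no calls. RPL30 (0.23 ± 0.06, adjusted p = 0.049) was the 1 of 36 ribosomal protein genes past the test, while 31 of 36 were above 0 with a median of 0.08. Of 37 oxidative phosphorylation genes ATP5MG and NDUFA6 were higher in C and UQCRC2 lower, with a median of 0.09. Of 16 inflammatory genes CXCL8, which encodes interleukin 8, was lower (-0.70 ± 0.16, adjusted p = 0.0303), and of 14 liver transcription factors FOXA3 was (-0.40 ± 0.09, adjusted p = 0.0309). FSCN1 (-0.49 ± 0.08, adjusted p = 0.0117) and ACTB (-0.33 ± 0.08, adjusted p = 0.0338) were lower and CCN1 higher among 22 actin genes. In limma 0 of 19 cytochrome P450 genes and 0 of 19 interferon genes passed, with 3 and 6 at an unadjusted p under 0.05. CYP1A1 differed by -0.01 ± 0.04 (adjusted p = 0.952), interval -0.10 to 0.08, and its mean of 6.58 in C was below the median gene level of 6.71.

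Singly named genes with large differences were DEPP1, a FOXO target (0.97 ± 0.15, adjusted p = 0.00779), AFMID, a kynurenine formamidase gene of tryptophan breakdown (0.93 ± 0.11, adjusted p = 0.00413), PFDN6, a prefoldin subunit gene (0.74 ± 0.09, adjusted p = 0.00494), and PRSS8, the prostasin gene (0.66 ± 0.10, adjusted p = 0.0075), all higher in C. AFMID was at 9.66, 9.62, 9.86, 9.91 and 9.87 on the C arrays and at 8.85, 8.74, 8.91, 8.56 and 9.19 on the L arrays. Lower in C were NOTUM, a Wnt deacylase gene (-0.77 ± 0.13, adjusted p = 0.0133), HOXD1, a homeobox gene (-0.74 ± 0.11, adjusted p = 0.00765), and UBP1, a transcription factor gene (-0.73 ± 0.11, adjusted p = 0.00814). NOTUM had a second probe past the test at -0.51.

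The same powders at the other doses are separate flasks. At 0.3 µg/mL, 4 against 4 arrays, 403 genes were higher and 750 lower in C (5.75% of genes, 2.01% and 3.74%), and at 30 µg/mL, 5 against 5 arrays, 39 were higher and 63 lower (0.509%, with 0.195% and 0.314%). Of the 1033 genes called at 3 µg/mL, 934 (90.4%) had the same direction at 0.3 and 979 (94.8%) at 30 µg/mL, against 61.6% and 64% of all genes. Calls at both 3 and 0.3 µg/mL numbered 229, which is 22.2% and 19.9% of the lists, and at both 3 and 30 µg/mL 68, 6.58% and 66.7% of the lists. All 229 and all 68 had the same direction. The median of each called gene's difference relative to that at 3 µg/mL was 0.716 at 0.3 and 0.722 at 30 µg/mL. Without L replicate 3 at 0.3 µg/mL it was 0.915, and without L replicates 1 and 5 at 30 µg/mL it was 1. These genes were selected for passing at 3 µg/mL, which tends to enlarge their differences there.

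Differences of C minus L did not change with dose past the test in limma: 0 genes passed for 3 against 0.3 µg/mL and 0 for 3 against 30 µg/mL, with 819 and 487 genes at an unadjusted p under 0.05. L replicate 5 at 30 µg/mL did not stand apart on principal component 1, and was left out below only for its replicate number. Without L replicate 3 at 0.3 and without L replicates 1 and 5 at 30 µg/mL, the calls were 3139 at 0.3 and 2185 at 30 µg/mL (15.7% and 10.9%). Of these, 1183 (5.9%) were higher and 1956 (9.76%) lower in C at 0.3 µg/mL, and 813 (4.06%) higher and 1372 (6.84%) lower at 30 µg/mL. At 30 µg/mL 728 genes passed without L replicate 1, which stands apart, and 544 without L replicate 5, against 3 to 33 when any other array was left out. At 0.3 µg/mL the count was 3139 without L replicate 3, and 500 to 756 without C replicate 2, 3 or 4 or L replicate 1, 2 or 4.

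**Figure D4:**
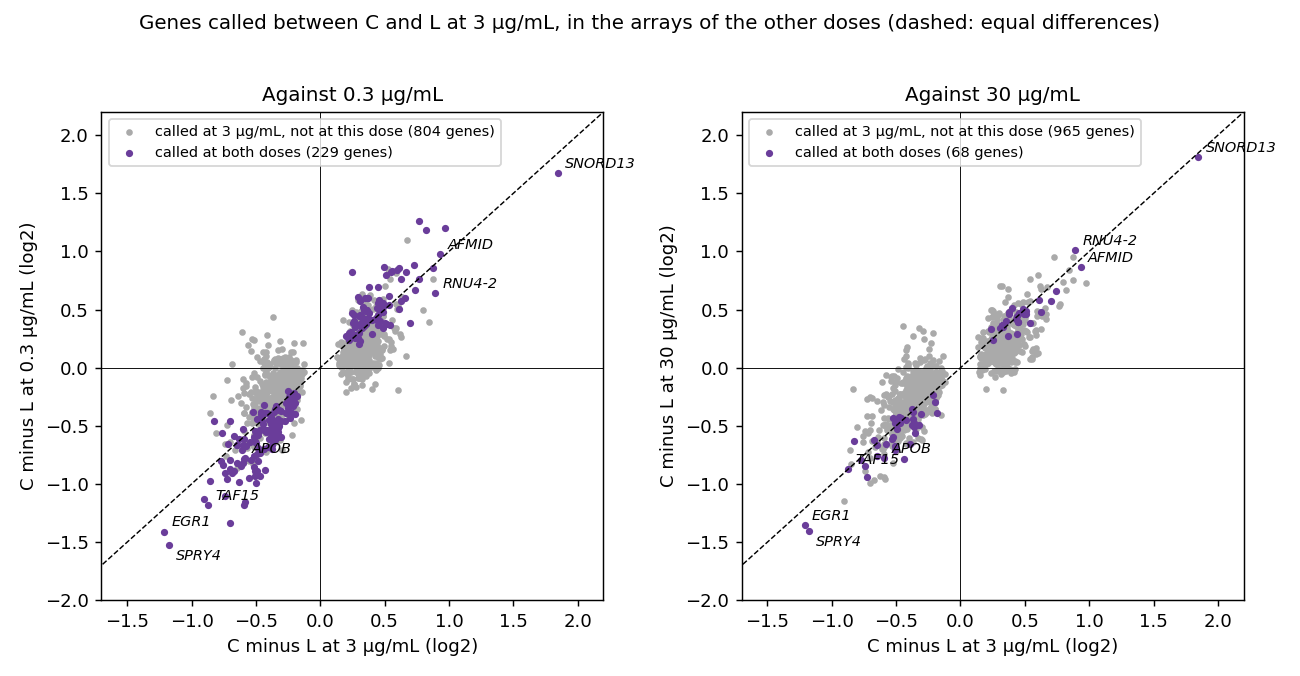
Differences of C minus L on the log2 scale for the 1033 genes called at 3 µg/mL, against the same differences at 0.3 µg/mL (left) and 30 µg/mL (right). Purple points passed the test at both doses, 229 on the left and 68 on the right, all in the lower left or upper right quadrant.

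At all 3 doses 43 of the 20046 genes tested passed, 16 higher and 27 lower in C, each in 1 direction throughout. SNORD13 differed by 1.67, 1.85 and 1.81 at 0.3, 3 and 30 µg/mL, RNU4-2 by 0.64, 0.89 and 1.01, and AFMID by 0.98, 0.93 and 0.87. EGR1 differed by -1.41, -1.21 and -1.35, SPRY4 by -1.53, -1.18 and -1.41, and TAF15 by -1.18, -0.87 and -0.87. Others of the 43, named after their values were seen, were THBS1, the thrombospondin gene (-0.91, -0.74 and -0.84), and NUP153, of the nuclear pore (-0.66, -0.65 and -0.67). CNOT1, which encodes a subunit of the deadenylation complex, gave -0.70, -0.44 and -0.78, and CNOT4 gave -0.59, -0.67 and -0.62. RBP4, the plasma retinol carrier gene, gave 0.38, 0.51 and 0.49, HIPK2, a kinase gene, 0.58, 0.62 and 0.48, and APOB -0.78, -0.59 and -0.78. The HIPK2 and CNOT4 calls rest on 1 probe each, since the 3 other HIPK2 probes differed by -0.19 to 0.04 at 3 µg/mL and the 2 other CNOT4 probes by -0.01 to 0.01. At that dose the 2 other CNOT1 probes (-0.32 and -0.13) and the other AFMID probe (0.38) did not pass. MT1X missed the test at 0.3 µg/mL (0.39) and 30 µg/mL (0.84, adjusted p = 0.253) with all arrays. Without L replicate 3 at 0.3 µg/mL it passed with 0.63 (adjusted p = 1.58e-04), and without L replicates 1 and 5 at 30 µg/mL with 1.23 (adjusted p = 0.002).

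By the rule for the other doses LYZ, the lysozyme gene, led at 0.3 µg/mL with a difference of 1.76 (adjusted p = 0.00474). At 3 µg/mL LYZ was at 11.54, 12.14, 12.27, 11.75 and 11.55 on the C arrays and at 10.62, 10.73, 10.24, 9.77 and 12.15 on the L arrays, so that L replicate 5 stood with C and the difference of 1.15 ± 0.37 (adjusted p = 0.106) missed the test, while without that array it was 1.51 (adjusted p = 0.00175). PRRC2A, lower in C at 0.3 µg/mL by 1.49, differed at 3 µg/mL by -0.97 ± 0.27 (adjusted p = 0.0629), and by -1.26 without L replicate 5 (adjusted p = 1.16e-04). APP, lower in C at 30 µg/mL, differed by -0.73 ± 0.17 (adjusted p = 0.0389) at 3 µg/mL, and KRT18, a keratin gene of liver cells, by 0.85 ± 0.24 (adjusted p = 0.0727) with all arrays and by 1.11 without L replicate 5 (adjusted p = 2.66e-04). The fits without L replicate 5 leave out the array picked for its nearness to C, so LYZ, PRRC2A and KRT18 count as missing the test at 3 µg/mL. NBPF10 differed by 1.46 at 0.3 µg/mL and by 0.35 ± 0.30 (adjusted p = 0.643) at 3 µg/mL, and its 5 other probes by -0.02 to 0.03.

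The arrays were also set against the difference between 1 untreated array, control 8, and the other controls. Each array was placed on the line that joins controls 1 to 7 (their mean is place 0) with control 8 (place 1). The place of control 8 is thus fixed by definition, and the direction of the line rests on that 1 array. Controls 1 to 7 lay between -0.18 and 0.20, the C arrays at -0.12, 0.26, 0.14, -0.11 and -0.10 and the L arrays at 0.43, 0.55, 0.45, 0.57 and 0.09. The C and L means differed by -0.40 (n = 5 each, two-sided exact permutation p = 0.0238, smallest possible 0.00794). At 0.3 µg/mL they differed by -0.21 (n = 4 each, exact permutation p = 0.0571, smallest possible 0.0286) and at 30 µg/mL by -0.37 (n = 5 each, exact permutation p = 0.0556), and D at 3 µg/mL lay between -0.20 and 0.13. Across genes, which are not independent replicates, C minus L at 3 µg/mL correlated with control 8 minus controls 1 to 7 at r = -0.49.

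Of the 491 genes higher in C, control 8 was below the mean of controls 1 to 7 in 415, and of the 542 lower in C it was above in 443, against 5836 of the 9984 genes with a difference above 0 and 6030 of the 10062 others. With the place on the axis as a covariate, chosen after seeing the data, 3 genes passed at 3 µg/mL, SOD2 among them with 0.89 (adjusted p = 0.0263). The place itself differed between the powders, with only L replicate 5 among the C places, so this fit gives C minus L with less precision. The lower count thus does not show how much of the difference goes with the axis. The 24 largest differences all kept their direction with that covariate, and their sizes were 0.491 to 1.346 of those without it (median 0.739), with 6 of the 24 larger. SNORD13 went from 1.85 to 1.03 and EGR1 from -1.21 to -0.83, whereas DEPP1 went from 0.97 to 1.26, IER3 from -0.85 to -1.07 and RBM3 from 0.87 to 0.83. The labels name no culture run, and the part of that axis in the difference between C and L was not tested beyond this. The mean of C lay within the range of the 8 controls for 464 of the 491 and 493 of the 542 called genes, and the mean of L for 255 and 275.

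**Figure D5:**
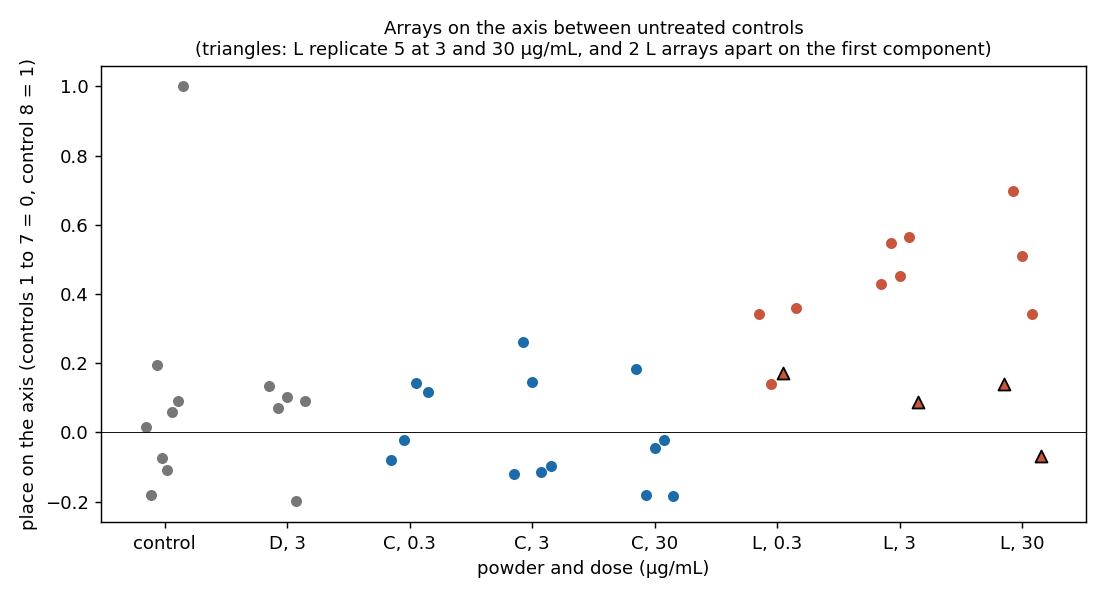
Place of each array on the axis from the mean of controls 1 to 7 (0) to control 8 (1), for the controls, powder D at 3 µg/mL and powders C and L at 3 doses. C arrays and all controls but 1 lie between -0.18 and 0.26, 4 of the 5 L arrays at 3 µg/mL between 0.43 and 0.57, and L replicate 5 (triangle) at 0.09.

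Genomic length was compared as a further property of the called genes. Protein-coding genes higher in C had a median length of 14 kb (quartiles 6.68 and 30.5, 451 genes), those lower in C 55.9 kb (28 and 118, 536 genes), and all 17776 measured protein-coding genes 25.9 kb, from RefSeq coordinates of GRCh38.p14.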

How the data were processed

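The deposited values are linear Illumina HT-12 v4 probe intensities that the authors made with the R package beadarray (version 2.4.1, under R 2.14.0), as the series text and, for R, the submitters' processing notes state. The background correction is not stated in the labels. Every array has the same distribution (median intensity 98.4, range 52.508 to 18529.1), so the intensities were taken as already quantile normalized and only log2 was applied to the deposited values. Of 48107 probes, 30113 carry 1 gene symbol in the platform annotation, 8 several and 17986 none. The brightest probe stood for each of 20046 genes, 6691 of which have over 1 probe.

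C and L were compared with limma 3.58.1 in R 4.3.3 (lmFit, eBayes, Benjamini-Hochberg over all genes) on the 10 arrays alone, likewise at 0.3 and 30 µg/mL. Changes with dose were interaction contrasts over the 6 groups. The scripts were tested on simulated data. The p-values measure the spread between flasks. Replicate numbers did not pair the arrays at 3 µg/mL (correlations of same-numbered arrays' deviations from -0.20 to 0.29).

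Named genes were the 12 largest non-overlapping called differences in each direction, the 4 members with the smallest p of each list with a called member, 10 fixed genes, and 3 genes per direction at each other dose. Others are named after their values were seen, the small RNAs, IER3's list-mates FOS, JUN, MYC, DUSP1 and SPRY2, CFB and the genes called at 3 doses among them. The members and the 31 gene lists were chosen with earlier results of these data known. Alternatives varied the samples in the fit, probe rule, normalization, filters, blocks and arrays.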

Additional observations from a re-analysis of the deposited data

Results flagged for a closer look

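In a group of 5, the highest or lowest array was set apart where its gap to the nearest other array passed Dixon's 95% critical value. Of 258 groups tested at 3 µg/mL, 16 met this, where chance gives about 1 in 20, and 10 of the 16 were L replicate 5. That array stood above the other L arrays for KRT18 (8.79, others 7.21 to 7.63), H2AC6 (8.27, others 7.23 to 7.46), NDUFA6 (8.77, others 8.52 to 8.57) and NBPF10 (10.50, others 8.68 to 9.13). It stood below them for SLC39A14 (10.54, others 11.10 to 11.20), HSP90AB1 (11.81, others 12.40 to 12.49) and TNFRSF10B (10.82, others 11.06 to 11.15). The same held for PRRC2A (8.06, others 9.35 to 9.71), APP (7.67, others 8.58 to 8.64) and its place on the axis to control 8 (0.0875, others 0.43 to 0.57).

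The other arrays set apart were L replicate 4 for TTR (10.97) and NFKB1 (10.07), L replicate 1 for CYP51A1 (6.95), C replicate 4 for HSPA4 (7.65), C replicate 1 for RPL30 (13.23) and C replicate 5 for NQO1 (11.22), each below the rest of its group.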

How the results depend on the processing

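At 3 µg/mL (1033 genes) the count was 686 in 1 fit over all 25 groups, 2066 in that fit without the arrays that stand apart, 376 over the 6 groups of C and L, 0 for at least a 1.5-fold change and 3 with the axis place as covariate. It was 352 to 2323 without 1 array. At 0.3 µg/mL (1153 genes) the same settings that moved it gave 2590 without the arrays that stand apart, 2 for 1.5-fold, 689 with the covariate and 500 to 3139 without 1 array. At 30 µg/mL (102 genes) they gave 1177 over all groups, 2020 without the arrays that stand apart, 635 over 6 groups, 24 with a trend and robust prior, 0 for 1.5-fold, 1189 with blocks of 12 arrays in deposit order and 0 with the covariate. Leaving out 1 array there gave 3 to 728, and leaving out L replicates 1 and 5 gave 2185. With the replicate block, which pairs arrays by number, the counts were 1025, 517 and 0 at 3, 0.3 and 30 µg/mL. With a trend and robust prior the split at 3 µg/mL was 400 higher and 682 lower in C. Changes with dose gave 0 genes in every setting. HSPD1 turned to 0.0769 with the mean of its probes. Of 77 named genes called at 3 µg/mL, 38 passed over all 25 groups, 33 over 6 groups and 2 with the covariate. The axis place itself differed between C and L, which lowers the precision of the fit with that covariate. The causes were not tested.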

Other observations

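Of the 20046 genes tested, 96 had the same direction and no overlap between the C and L arrays at each of the 3 doses, 41 higher and 55 lower in C. Long noncoding RNA genes gave 13 higher (1.63%) and 2 lower in C of 798 measured at 3 µg/mL. Both long noncoding RNA counts are below the shares over all genes, 2.45% higher and 2.7% lower.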
